A study of Mus musculus with 16 samples.

Results

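The nuclear pore and nuclear transport genes were chosen by symbol from the annotation of a mouse expression array. The symbols taken were Nup, Ipo, Kpna, Tnpo and Ranbp followed by a digit, Xpo followed by a digit or by t, and Nupl1, Nupl2, Kpnb1 and Ran. This rule used no measured value and gave 55 of the 22340 genes on the array, measured by 87 probes, with the brightest probe taken for each gene. The rule is one of names, so it leaves out pore proteins with other names, such as Seh1l, Tpr and Pom121, and takes in Ranbp9 and Ranbp10, which are scaffolds of a ubiquitin ligase.

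The nuclear pore complex is a ring-shaped channel through the nuclear envelope, built from nucleoporins that form outer rings of Y-shaped complexes, an inner ring, a central channel filled with phenylalanine-glycine repeats, filaments on the cytoplasmic side and a basket on the nuclear side. Importins and exportins, the carriers that take proteins and RNAs through the channel, load and unload their cargo according to whether the small GTPase Ran carries GTP, which is the case in the nucleus. T cells that respond to antigen enlarge and then divide, and growing nuclei assemble new pores.

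The cells were lymph node T cells of mice heterozygous for the OT-1 T cell receptor transgene on a Rag-/- background, either WT or Lck-/-. Lck is a tyrosine kinase that acts first below the engaged T cell receptor, and OT-1 is a receptor for the ovalbumin peptide SIINFEKL. All cells, of both genotypes, had been cultured with 100 nM of the peptide for 24 h and with 100 µg/ml cycloheximide for the final 10 min, which halts ribosomes on mRNAs. RNA free of nuclei was separated on 10 to 50% sucrose, fractions 1 to 5 (sub-polysomal, few or no ribosomes) and 6 to 10 (polysomal, several ribosomes) were pooled, and each array compared both pools of an extract, 1.5 µl of RNA from each. There were 4 extracts per genotype, and each was run on 2 arrays with the dyes exchanged. The submitters call the 4 extracts biological replicates and do not name an animal or culture for each, and the p-values describe the spread among these extracts, which may be technical. The series title adds the word OFF, which is not explained in the sources used here.

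Lck mRNA had a mean log2 level over both fractions of 15.03 ± 0.21 (SD, n = 4) in WT and 14.18 ± 0.13 in Lck-/- extracts, and the genotypes did not overlap. The difference was -0.85 with an SE of 0.14 (limma, adjusted p = 0.00295), a level 1.81-fold lower, and the probe stayed well above background in Lck-/-. Where that probe lies relative to the disrupted part of the gene is not given in the sources used here. Of the T cell markers on the array, 9 of 9 were above background in both genotypes, against 1 of 6 for B cells (Cd79b) and 0 of 4 for stromal cells. The single NK list gene above background, Eomes, which activated CD8 T cells also express, was 2.06 higher in Lck-/- in the mean of both fractions (limma, adjusted p = 0.00272). Of 10 myeloid and dendritic markers, 4 were above background in WT and 3 in Lck-/-. Some markers differed in level in the mean of both fractions. Of the myeloid markers, Cd68 was lower by 0.77 (limma, adjusted p = 0.00355) and Itgam was at -0.70 (adjusted p = 0.0715). Csf1r was at 0.28 (adjusted p = 0.511) and Cd74 at -0.21 (adjusted p = 0.477). The T cell marker Cd5 was lower by 0.63 (adjusted p = 0.0152) and Thy1 higher by 0.44 (adjusted p = 0.0358). Their part in the results was not tested. The erythroid gene Hba-a1 was highest in Lck-/- replicate 1, at 10.36, against 7.74 to 8.53 in the other Lck-/- extracts and 7.26 to 7.97 in WT. The same extract had 1 array with 50776 probes above background in the polysomal channel, where the other 15 arrays had 26643 or fewer. In bulk RNA, fewer cells of a type and less RNA per cell cannot be told apart.

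For WT extracts 1 and 2, the array and its dye swap disagreed. Deviations from the group mean correlated between the 2 arrays of an extract at -0.83 and -0.81 for these, against 0.46 to 0.84 for the other 6 extracts. When the dye-swap arrays were exchanged between WT 1 and WT 2 the correlations were 0.87 and 0.94. All values are given for the extracts as labelled, and counts that this exchange moves are given beside the result. If the labels were exchanged, averaging as labelled mixes the 2 extracts and brings their values together. The WT SDs may then be too small, and SEs and statements of no overlap share this limit.

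Of the 55 genes, 7 were not bright enough for any comparison: Kpna7, Nup210l, Nup214, Nup62cl, Ranbp17, Ranbp3l and Ranbp6. Nup214, a cytoplasmic nucleoporin, was well above background on 3 of 8 arrays of each genotype in the polysomal channel. The ratio of polysomal over sub-polysomal RNA was tested for 45 genes, the mean of both fractions for 47, and each single fraction for 48. Ipo9 and Nup188 were tested for levels but not for the ratio.

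mRNAs of the transport machinery lay on the polysomal side of the typical mRNA. Loess centres each array on its typical mRNA, which then has a ratio near 0. The median log2 ratio of the 45 genes was 0.36 in WT, against 0.04 for all 8265 genes tested. In WT, 28 of 45 were above 0 (62.2%) and 2 were below (limma, adjusted p under 0.05), where 33.5% of all genes were above and 28.8% below. In Lck-/- extracts 23 were above 0 and 6 below, where 26.9% and 29.2% of all genes were, and the median was 0.27 against -0.03. In both genotypes 22 genes were above 0, and Nup35 and Nup54 were below. The shares rest on the scaling to the typical mRNA, and with the WT 1 and WT 2 dye swaps exchanged 21 genes were above 0 and 1 below in WT, and 16 and 4 in Lck-/-. Shares of all genes with that exchange are not given here, so whether the excess over all genes stays was not tested.

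**Figure D1:**
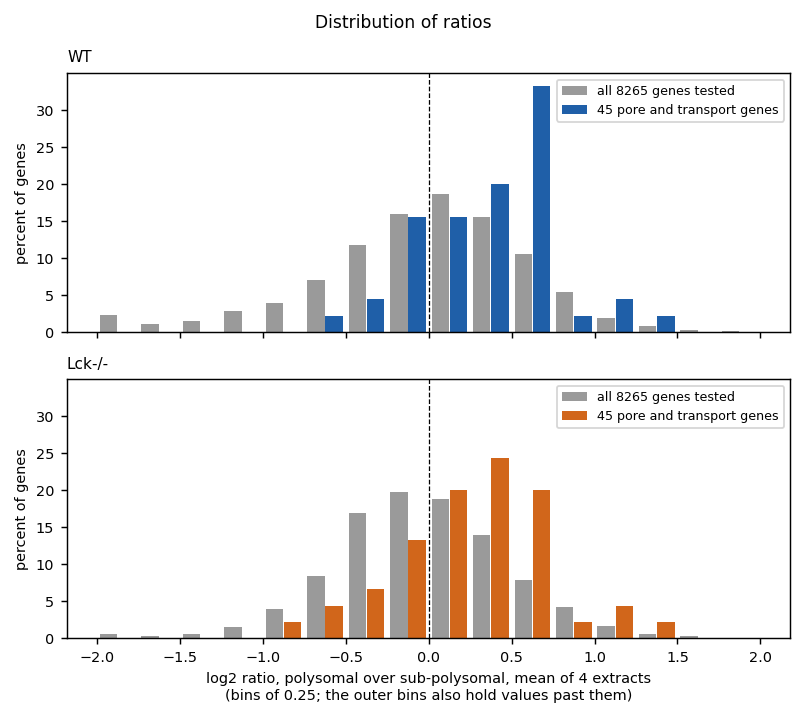
Distribution of the log2 ratio of polysomal over sub-polysomal RNA, mean of 4 extracts, in WT (top) and Lck-/- (bottom). Grey bars are the percent of all 8265 genes tested in each bin, coloured bars the percent of the 45 pore and transport genes, which in WT had their tallest bin, with 15 genes, between 0.5 and 0.75.

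The 4 highest WT ratios belonged to carriers, while other carriers lay near or below 0. Xpot, the exportin that takes tRNAs out of the nucleus, had the highest ratio in WT, with extracts at 1.22, 1.44, 1.36 and 1.41 and a mean of 1.36 ± 0.09 (SD, n = 4). Its percentile among all tested genes was 99.2. Its Lck-/- extracts were at 0.82, 1.62, 1.19 and 1.60, a wider spread that surrounded the WT values. The width of the WT spread rests on the dye-swap labels of WT 1 and WT 2. Kpnb1, importin beta 1, which carries cargo bound by importin alpha, came next with a ratio of 1.03 ± 0.08 in WT and 1.14 ± 0.29 in Lck-/- extracts. Kpna2, an importin alpha that recognises the classical nuclear localisation signal, followed with 1.01 ± 0.25 in WT and 0.61 ± 0.32 in Lck-/- extracts. All 4 probes of Kpna2 that passed the filter gave a WT ratio between 0.99 and 1.03. The next in order were Ipo8, an import receptor, with a WT ratio of 0.78, the membrane nucleoporin Nup210 with 0.75, and Ranbp2, the main protein of the cytoplasmic filaments, with 0.75. These 3 differed from each other by less than the spread between extracts.

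Of the importin beta receptors, 9 of 10 tested were above 0 in WT and 8 of 10 in Lck-/-, where 33.5% and 26.9% of all genes were. The exception in WT was Tnpo2, a transportin related to Tnpo1, at 0.08 ± 0.07, and in Lck-/- Tnpo2 and Ipo11 did not pass, at 0.15 and 0.09. Of the importin alpha adaptors, 4 of 5 were above 0 in WT and 2 of 5, Kpna2 and Kpna6, in Lck-/-. The same shares of all genes apply, and these counts depend on the probe. Kpna3 did not pass, at 0.18 in WT and -0.04 in Lck-/-. Its other probes were at 0.78 and 0.47 in WT and at 0.90 and 0.55 in Lck-/-. The other Kpna6 probe was at -0.27 in WT and -0.18 in Lck-/-. The exportins were spread widely, from Xpot to Xpo7 at -0.17 ± 0.44 in WT and -0.996 ± 0.69 in Lck-/-. The 4 Xpo7 extracts of Lck-/- lay at -0.81, -0.11, -1.49 and -1.58. Extracts 3 and 4 held the lowest ratios of the 45 genes, and extract 2 lay within the WT range of -0.69 to 0.35.

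**Figure D2:**
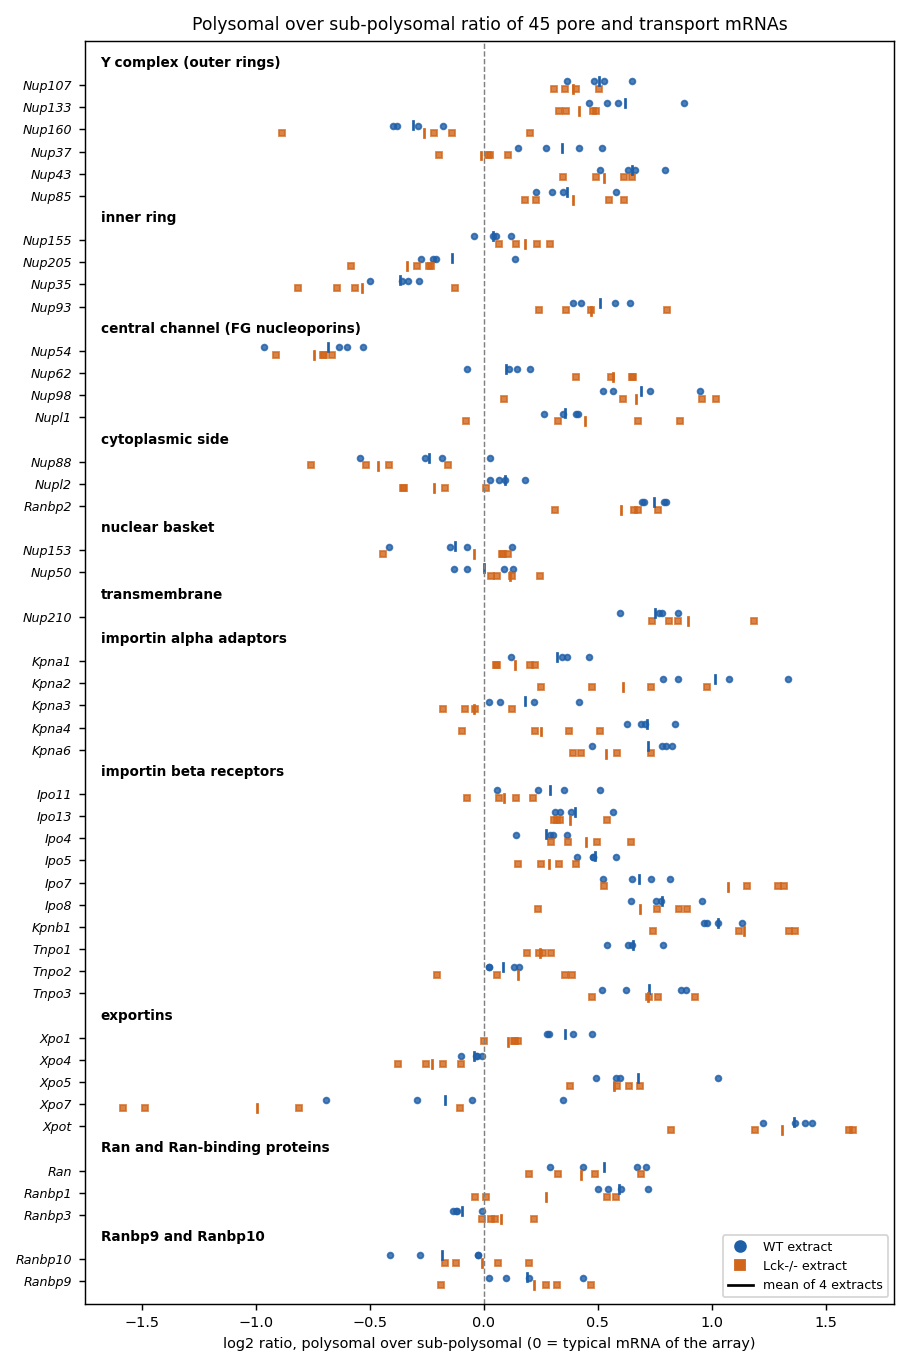
Log2 ratio of polysomal over sub-polysomal RNA for the 45 genes tested, by place in the pore or role in transport. Circles are WT extracts, squares Lck-/- extracts and short lines means of 4, and 0 is the typical mRNA of the array. Xpot and Kpnb1 lie farthest right, Nup54 and Nup35 lie left of 0 in every extract.

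Of the Y complex of the outer rings, 5 of 6 members (Nup107, Nup133, Nup85, Nup37 and Nup43) were above 0 in WT, where 33.5% of all genes were. The 5 means ran from 0.34 to 0.65, and the other member, Nup160, was at -0.31 ± 0.10 (adjusted p = 0.077, limma). The WT ratios of Nup160 were -0.29, -0.18, -0.38 and -0.40, all below 0. The inner ring was divided, with Nup93 at 0.51, Nup155 at 0.04, Nup205 at -0.14 and Nup35, which links the ring to the membrane, at -0.37 in WT. Nup35 has 2 probes that passed the filter, and both had a WT ratio below 0, at -0.37 and -0.34.

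The central channel proteins Nup62, Nup54 and Nupl1 form a single complex, and by their brightest probes their mRNAs lay apart. The other Nup54 probe had a WT ratio of 0.09, near Nup62 at 0.10, so the place of Nup54 depends on the probe. By its brightest probe Nup54 had the lowest WT ratio of the 45 genes, with extracts at -0.64, -0.53, -0.60 and -0.96. Nupl1 had extracts at 0.35, 0.40, 0.41 and 0.26. Nup98, a further repeat nucleoporin of the channel that binds the export factor Rae1, was at 0.69 ± 0.19 in WT. On the cytoplasmic side Ranbp2 was at 0.75, Nupl2, the partner of the export factor Gle1, at 0.09 and Nup88 at -0.24. The basket proteins Nup153 and Nup50 were near 0, at -0.13 ± 0.22 and 0.00 ± 0.12. Ran and Ranbp1, which helps Ran hydrolyse GTP in the cytoplasm, were above 0 in WT at 0.53 and 0.59, and Ranbp3, a cofactor of Xpo1, was at -0.10. Ranbp9 and Ranbp10, which are not pore proteins, were at 0.19 and -0.18 and passed in neither direction.

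For several genes the value depends on the probe, and the cause was not tested. Of 11 genes with more than 1 probe above the filter, 7 had WT ratios within 0.25 of each other, and 2, Kpna6 and Nup54, had ratios of opposite sign. The first 30 of the 60 bases of each of these probes are shown, in lower case, because the pairs disagree.
Nup54 brightest probe: tgcctgttggaggctgtgcttcagggtata
Nup54 other probe: gctgatgaagagcagttgcgggttcagcta
Kpna6 brightest probe: cctgggtagacaaacaaagcttgatttcag
Kpna6 other probe: aattatctttcttcatccatcccagtcctc
The brighter Nup54 probe starts at base 2030 of its transcript (chr5:92844808-92844867, minus strand, build mm9) and the other at base 1350 (chr5:92846819-92846878). Their WT ratios were -0.68 and 0.09. The Kpna6 probes start at bases 5521 (chr4:129321353-129321412) and 2069 (chr4:129324805-129324864), and their WT ratios were 0.72 and -0.27. Within each pair, 1 probe placed the gene above the typical mRNA and 1 below it.

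Between genotypes, the question was whether any of these mRNAs shifted along the gradient when Lck was missing. No gene of the 45 passed the test for the ratio in the fit across all genes (limma, adjusted p under 0.05), where 2.82% of all genes were higher and 1.05% lower in Lck-/-. Of the 45, 8 had an unadjusted p under 0.05, a smaller share than the 1722 of 8265 among all genes. The difference was negative for 30 of the 45, and positive for 33.3% of them against 44.2% of all genes. The median difference of the group was -0.10, against -0.04 for all genes. The ratios of the genotypes did not overlap for 8 of 45 genes, where 14.5% of all genes did not overlap.

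Nup62 had the smallest p. Its WT extracts were at 0.20, 0.14, 0.11 and -0.07 and its Lck-/- extracts at 0.56, 0.65, 0.41 and 0.65. Every Lck-/- extract lay above every WT extract. The difference was 0.47 with an SE of 0.12 (limma, adjusted p = 0.0543), and 3 of 24 other settings put it past the threshold while 3 turned its sign. In the settings that turned it, the median difference of all tested genes was between -1.15 and -0.78. The next smallest p-values had differences below 0. Tnpo1, which carries proteins such as hnRNP A1 into the nucleus, was at -0.41 (adjusted p = 0.0687), Kpna4, an importin alpha, at -0.46 (adjusted p = 0.11) and Nup37 at -0.35 (adjusted p = 0.16). Tnpo1 lay at 0.54, 0.65, 0.63 and 0.78 in WT and at 0.24, 0.26, 0.19 and 0.30 in Lck-/-, with no overlap. Kpna4 did not overlap either, at 0.69, 0.71, 0.63 and 0.84 in WT and -0.10, 0.51, 0.23 and 0.37 in Lck-/-.

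The loess step removes any shift shared by all mRNAs, so the genotype comparison of ratios is one of genes relative to the typical mRNA. The median ratio over all tested genes, with no normalization, was 1.41, 1.18, 1.73 and 1.04 in the WT extracts and 0.21, 0.39, 0.78 and 0.69 in the Lck-/- extracts. The medians of the 45 genes were 1.86, 1.55, 2.14 and 1.49 in WT and 0.38, 0.72, 1.06 and 0.92 in Lck-/-. Both sets were lower in each Lck-/- extract than in each WT extract. On that scale 40 of the 45 genes were lower in Lck-/- and 0 higher, where 71.9% of all genes were lower and 0.484% higher, and the median difference was -0.99 for the 45 and -0.78 for all genes. With median centring 33 were lower and 0 higher, where 56.3% and 0.387% of all genes were. On the authors' deposited table of log2 ratios 44 were lower and 0 higher, where 90.0% and 0.303% were, and the medians were -1.36 and -1.15. After the columns of that table had been centred, 1 gene was higher and 1 lower, where 5.40% and 3.49% of all genes were. Since a fixed volume of RNA and not a fixed mass was labelled, unequal RNA yield and unequal ribosome loading cannot be told apart here.

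**Figure D3:**
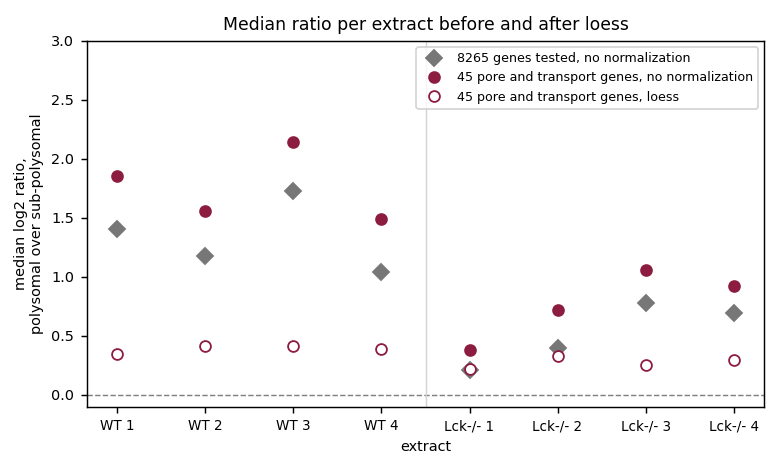
Median log2 ratio in each extract, for all 8265 tested genes (diamonds) and the 45 pore and transport genes (circles) with no normalization, and for the same 45 genes after loess (open circles). Without normalization the WT medians of all genes lie between 1.04 and 1.73 and the Lck-/- medians between 0.21 and 0.78, and after loess the 45-gene medians lie between 0.22 and 0.42.

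The level of each mRNA was compared as the mean of both fractions. Loess, median centring and no normalization change only the ratio, so the same calls, 6 and 2, follow from each by construction. In Lck-/- extracts 6 of 47 genes were higher (Nupl2, Xpo5, Ranbp2, Tnpo3, Ipo13 and Ranbp3) and 2 were lower (Nup160 and Nup37), where 9.30% of all genes were higher and 11.3% lower. The median difference was 0.11, against 0.04 for all genes. The genotypes did not overlap for 12 of 47 genes, where 25.9% of all genes did not overlap. The counts of calls moved with the libraries used: without WT 3, without WT 4, without Lck-/- 3 or without Lck-/- 4 only 1 gene was higher and 1 lower, without WT 2 it was 3 and 1, and without Lck-/- 1, the extract with the high Hba-a1 level, it was 10 and 2. With the WT 1 and WT 2 dye swaps exchanged 5 were higher and 1 lower.

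**Figure D4:**
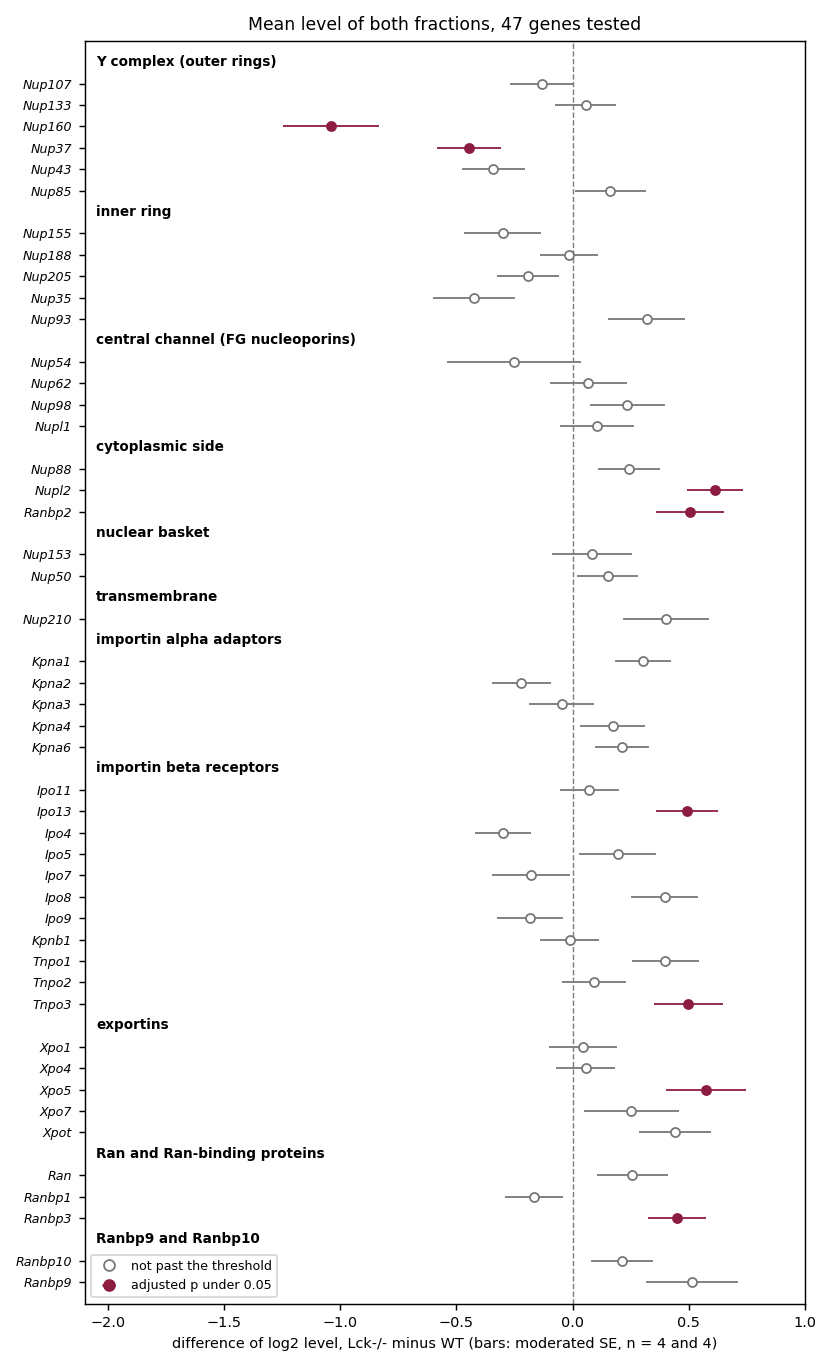
Difference of the mean log2 level of both fractions, Lck-/- minus WT, for the 47 genes tested, with the moderated SE. Filled points passed the threshold. Nup160 and Nup37 lie left, and the 6 filled points on the right span 0.45 to 0.61.

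Nup160, a scaffold of the Y complex, had the largest difference of the group. The mean of both fractions was 10.33, 10.15, 10.29 and 10.53 in WT and 9.20, 9.92, 9.21 and 8.82 in Lck-/-, so the groups did not overlap and Lck-/- replicate 2 was the closest to WT. The difference was -1.04 with an SE of 0.21 (limma, adjusted p = 0.00686), a level 2.06-fold lower in Lck-/-. The adjusted p stayed under the threshold in the 23 other settings, with values from -1.25 to -0.88. Median centring and no normalization are among these and leave this mean unchanged. Nup160 was the only gene of the 48 called in both fractions, at -1.01 in polysomal RNA (adjusted p = 0.0115) and -1.07 in sub-polysomal RNA (adjusted p = 0.0131). It is measured by a single probe, whose first 30 bases were atttcagtggatttgttttggtccagaact (chr2:90576065-90576124, plus strand, build mm9, from base 5263 of the transcript).

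Nup37, a small subunit of the same complex, was lower by a smaller amount. Its mean level was 12.02, 11.995, 12.11 and 12.39 in WT and 11.85, 11.81, 11.55 and 11.52 in Lck-/-, without overlap. The difference was -0.44 with an SE of 0.14 (limma, adjusted p = 0.0424), and in 13 of 23 other settings the call was lost. In polysomal RNA the difference was -0.62 (adjusted p = 0.0337) and in sub-polysomal RNA -0.27 (adjusted p = 0.164). Of the other Y complex members of the group, Nup43 was at -0.34 (adjusted p = 0.0927) with no overlap between genotypes, Nup107 at -0.13, Nup133 at 0.06 and Nup85 at 0.16. In all, 2 of the 6 were lower and none higher, with a median of -0.24, where 11.3% and 9.30% of all genes were.

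On the cytoplasmic side 2 of 3 tested genes were higher, where 9.30% of all genes were, a count too small to set this side apart. Nupl2 lay at 9.84, 9.75, 9.76 and 9.76 in WT and at 10.16, 10.42, 10.48 and 10.49 in Lck-/-. The difference was 0.61 with an SE of 0.12 (limma, adjusted p = 0.00662), 1.53-fold, with no overlap. This value belongs to the brightest probe (first 30 bases cccatactcctccctaactatggcttctga, chr5:23688516-23688575, plus strand, build mm9), and with the mean of all probes of Nupl2 it was 0.14 and did not pass. Ranbp2 lay at 10.57, 10.55, 10.06 and 10.27 in WT and at 10.68, 10.93, 10.85 and 11.01 in Lck-/-, all above WT, a difference of 0.50 with an SE of 0.15 (limma, adjusted p = 0.0336). Nup88 was at 0.25 and did not pass.

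Of the other nucleoporins none passed in the mean of both fractions. The inner ring lay between -0.42 (Nup35) and 0.32 (Nup93), the central channel between -0.25 (Nup54) and 0.24 (Nup98), the basket at 0.09 and 0.15, and Nup210 at 0.40. Nup54's other probe was 0.55 higher in Lck-/-, opposite to its brightest. Of the 11 genes with more than 1 probe above the filter, 4 had differences of opposite sign between probes: Ipo5, Kpna3, Nup54 and Xpo1.

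Of the importin beta receptors 2 of 11 tested were higher in the mean of both fractions, of the importin alpha adaptors 0 of 5 and of the exportins 1 of 5, and 0 were lower. These small counts are read against the 9.30% of all genes that were higher and do not set the carriers apart. Xpo5, which exports precursors of microRNAs, lay at 10.14, 9.91, 10.04 and 9.73 in WT and at 10.34, 10.18, 10.68 and 10.93 in Lck-/-. Every Lck-/- extract was above every WT extract, and the difference was 0.57 with an SE of 0.17 (limma, adjusted p = 0.0381). Tnpo3, which imports splicing factors of the SR family, lay at 12.62, 12.62, 12.26 and 12.28 in WT and at 12.75, 12.86, 12.94 and 13.24 in Lck-/-, 0.50 higher with an SE of 0.15 (adjusted p = 0.0363). Ipo13, an importin beta receptor, lay at 11.01, 11.00, 10.74 and 10.83 in WT and at 11.24, 11.24, 11.42 and 11.64 in Lck-/-, 0.49 higher with an SE of 0.13 (adjusted p = 0.027). The genotypes did not overlap for either gene. Ranbp3, the cofactor of Xpo1, rose by 0.45 (adjusted p = 0.0273), while Xpo1 itself, the main exporter of proteins with leucine-rich signals, was at 0.05 (SE 0.15), Ran at 0.26 (SE 0.15), Kpnb1 at -0.01 (SE 0.13) and Kpna2 at -0.22 (SE 0.13), none of which passed.

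In polysomal RNA alone 2 of 48 genes were higher (Ranbp3 by 0.54 and Tnpo3 by 0.50) and 3 lower (Nup160, Xpo6 and Nup37), where 5.57% of all genes were higher and 9.36% lower. These calls rested on single extracts: without any 1 WT extract, without Lck-/- 3 or without Lck-/- 4, 0 genes were higher and 1 lower, and without Lck-/- 1 there were 8 and 3. The polysomal call was lost in 15 of 23 other settings for Ranbp3 and in 12 of 22 for Xpo6. For Tnpo3 it was lost in 14 of 23, and the sign turned in 2 more. Xpo6, which exports actin, was at -0.65 (limma, adjusted p = 0.025). Its polysomal levels of 8.17, 8.16, 8.25 and 8.29 in WT did not overlap those of 7.23, 7.91, 7.62 and 7.53 in Lck-/-. Its sub-polysomal difference was -0.39 (adjusted p = 0.0838), and its mean was not tested because the probe did not exceed background in both channels of the same array on 6 of 8 arrays in either genotype. In sub-polysomal RNA 8 genes were higher and 1, Nup160, lower, where 8.56% and 10.8% of all genes were. The 8 were Nupl2 (0.77), Xpo5 (0.63), Tnpo1 (0.60), Ranbp2 (0.58), Ipo13 (0.50), Xpot (0.47), Ipo8 (0.44) and Kpna4 (0.40). The sub-polysomal call was lost in 14 of 23 other settings for Kpna4, 12 for Ipo13, 11 for Xpot and 10 each for Xpo5 and Ipo8. It was lost in 8 for Tnpo1, 5 for Ranbp2 and 2 for Nupl2. The genotypes did not overlap in 9 genes for polysomal RNA (22.6% of all genes) and in 15 for sub-polysomal RNA (25.9%).

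The fractions of Tnpo1 and Kpna4 were as follows. The sub-polysomal level of Tnpo1 was 12.23, 11.99, 11.81 and 11.80 in WT and 12.38, 12.38, 12.72 and 12.77 in Lck-/- (no overlap, adjusted p = 0.0208), and the polysomal difference was 0.20 (adjusted p = 0.425). Kpna4 was 0.40 higher in sub-polysomal RNA (adjusted p = 0.0429) and -0.06 in polysomal RNA. Single-fraction values depend on the scaling: with median centring, 27 genes were higher and 0 lower in sub-polysomal RNA and 0 higher and 11 lower in polysomal RNA, and with no normalization 27 and 1, and 0 and 14. With the WT 1 and WT 2 dye swaps exchanged, 2 genes were higher and 1 lower in sub-polysomal RNA and 0 and 1 in polysomal RNA. Shares of all genes called in these settings are not given here, so these counts are not read as a result about the group.

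**Figure D5:**
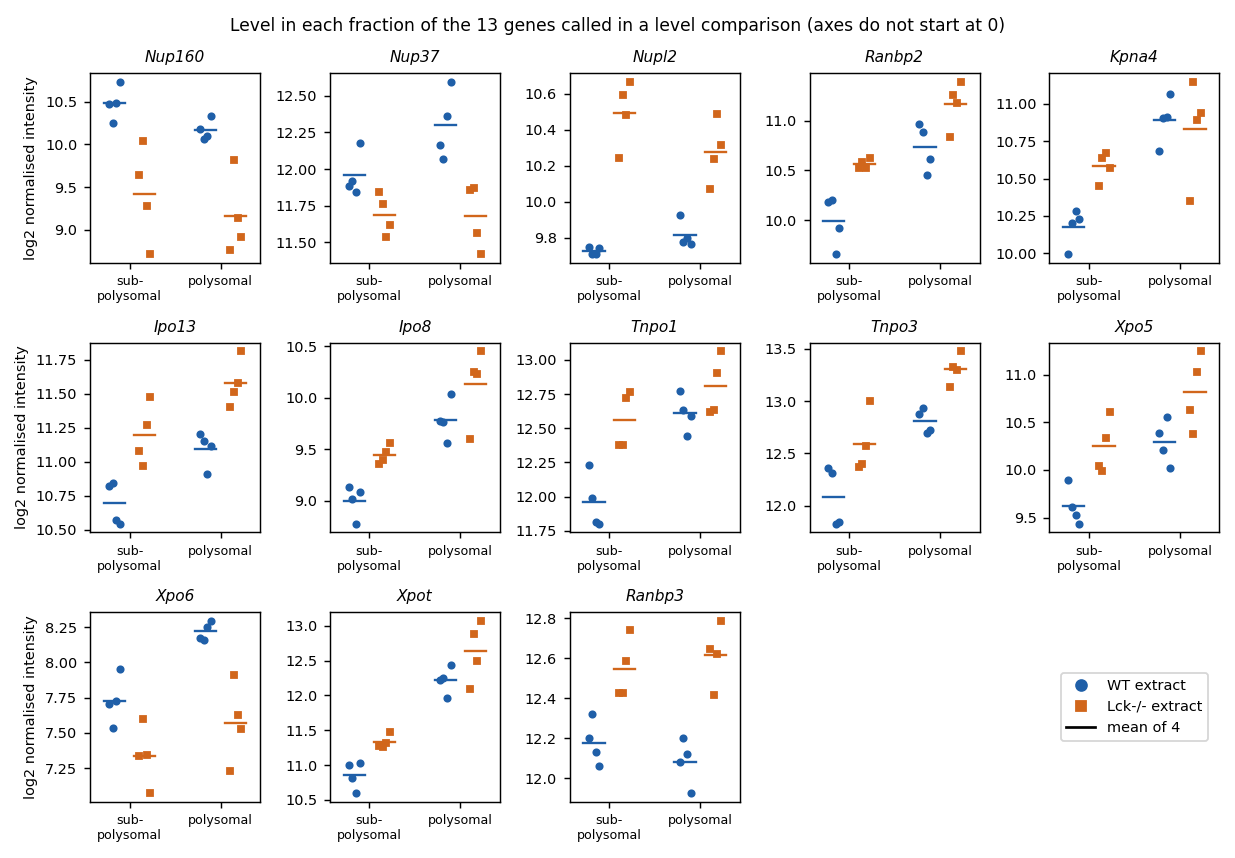
Log2 normalised intensity in sub-polysomal and polysomal RNA for the 13 genes called in at least 1 level comparison. Circles are WT extracts, squares Lck-/- extracts, lines means of 4. Nup160 is lower in Lck-/- in both fractions. None of the 8 genes higher in sub-polysomal RNA passes the threshold in polysomal RNA, and Tnpo1, Xpot, Ipo8 and Kpna4 do not pass in the mean either. For Xpot the differences are of similar size, 0.47 in sub-polysomal and 0.42 in polysomal RNA.

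Genes of the same machinery that the name rule leaves out were examined as a list of 22, chosen with earlier results of these data known. None passed for the ratio. In the mean of both fractions 5 were higher and 3 lower, where 9.30% and 11.3% of all genes were, with a median difference of 0.01. The 3 that fell were Aaas, a pore protein of the cytoplasmic side, by 1.21 (limma, adjusted p = 0.0013), Cse1l, the exportin that returns importin alpha to the cytoplasm, by 1.20 (adjusted p = 0.00288), and Seh1l, a Y complex subunit, by 0.54 (adjusted p = 0.0358). Cse1l lay at 9.75, 9.72, 10.05 and 10.23 in WT and at 8.87, 9.17, 8.60 and 8.29 in Lck-/-. The groups did not overlap, and the level was 2.30-fold lower. Sec13, a further Y complex subunit, was at -0.44 (adjusted p = 0.0561) with no overlap.

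The 5 that rose included Pom121, a membrane nucleoporin that takes part in pore assembly, by 0.71 (adjusted p = 0.00611), and Rcc1, the nuclear exchange factor that loads Ran with GTP, by 0.69 (adjusted p = 0.0108). Rangrf, a Ran-binding release factor, rose by 0.57, Rae1, which works in mRNA export with Nup98, by 0.57 and Snupn, the import adaptor of spliceosomal small ribonucleoproteins, by 0.42. All 5 had no overlap between genotypes, where 25.9% of all genes had no overlap. The 5 were picked as past the threshold, so this adds no separate support. Of 23 genes of mRNA export, 20 were tested for the mean, where 9.30% of all genes were higher and 11.3% lower. Of the 20, 2 were higher (Ncbp2 by 0.55, Zc3h11a by 0.54) and 2 lower (Thoc7 by 0.60, Thoc3 by 0.50), again with none for the ratio.

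A reference list of genes of dividing cells was read beside these, and it was divided. Of its 11 tested genes 6 were lower in Lck-/- and 0 higher, where 11.3% and 9.30% of all genes were, with a median of -0.90. The 6 included Ccnb1, lower by 1.66 (limma, adjusted p = 0.0012), Mki67 by 1.38 (adjusted p = 0.00955) and Top2a by 0.90 (adjusted p = 0.0145). The other 5 were not called, and 2 of the 11 differences were positive, up to 0.30. The part of dividing cells in the levels of Nup160, Nup37, Seh1l and Cse1l was not tested.

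The promoters of Nup160 and Nup37, the 2 genes lower in the mean, and of Nupl2, the gene with the largest rise, are shown to give their sequence context. They come from RefSeq on build GRCm38.p6, in which 44 of the 55 genes have an entry, and each line gives the 150 bases before the annotated start, 5′ to 3′ on the gene's strand (plus for all 3). Capitals mark letters of a searched motif on either strand.
Nup160: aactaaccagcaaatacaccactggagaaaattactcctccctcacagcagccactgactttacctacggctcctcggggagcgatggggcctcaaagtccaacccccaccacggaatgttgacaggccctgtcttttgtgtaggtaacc
Nup37: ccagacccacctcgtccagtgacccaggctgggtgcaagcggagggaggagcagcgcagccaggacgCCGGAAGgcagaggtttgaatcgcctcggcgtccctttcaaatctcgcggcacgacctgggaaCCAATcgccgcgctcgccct
Nupl2: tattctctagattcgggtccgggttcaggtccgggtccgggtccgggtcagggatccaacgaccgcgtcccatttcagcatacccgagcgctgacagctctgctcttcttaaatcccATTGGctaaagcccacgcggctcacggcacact
They lie at chr2:90677065-90677214 (Nup160), chr10:88146842-88146991 (Nup37, the first of 2 entries) and chr5:24164813-24164962 (Nupl2). Nup37 holds the ETS motif CCGGAAG and the NF-Y motif CCAAT, Nupl2 holds CCAAT on the other strand, and the stretch of Nup160 holds none of the letters searched.

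Motifs were counted in the full windows, from 250 bases before to 50 after the start, on both strands, for the 44 genes and for all 27025 genes with an entry. CCAAT was present in 50.0% of the 44 and 41.1% of all. The E-box CACGTG, bound by factors such as Myc, was present in 9 of the 44 (20.5%) and in 8.1% of all. The NRF1 motif was present in 13.6% and 5.2%, CCGGAAG in 15.9% and 9.9%, TTTCCCGC or TTTGGCGC, the E2F motif, in 4.5% and 1.8%, and TGACGTCA, the CRE, in 9.1% and 2.0%. CACGTG and TGACGTCA read the same on both strands, and none of these counts was tested.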

How the data were processed

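Per the file headers, the deposited scanner output gives each spot's mean intensity and local background intensity (Agilent Feature Extraction 10.7.3.1, probe positions on mm9). The deposited processed signals, also intensity, had background, spatial trend and dye bias removed by the authors' software. Deposited flags, of 1 or 0 for each spot, tell which exceeded background clearly and which were outliers. The authors' deposited table gives 1 log2 ratio per extract (polysomal against sub-polysomal), dye swaps combined, with its centring not given in the sources used here. The submitters' processing notes name limma without a version.

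Intensities were background-corrected with normexp (offset 50), log2 ratios normalised with loess and single channels with Aquantile, in R 4.3.3 with limma 3.58.1 and the package data.table (version 1.17.8). In the polysomal channel 14619 to 26643 probes per array were well above background, except 50776 on 1 array of Lck-/- 1, and 12531 to 30976 in the sub-polysomal channel, and the number of extracts limits the precision. Dye swaps of an extract were averaged (n = 4 per genotype). For ratios, both channels had to exceed background together on 6 or more of the 8 arrays in WT and in Lck-/-, and for levels the channels used had to do so in either genotype. Differences are Lck-/- minus WT in log2. Linear models with empirical Bayes variances were fitted over all genes, with Benjamini-Hochberg adjustment at 0.05. The fit was tested on simulated data.

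The members, gene lists, tests and settings were chosen with earlier results of these data known. Named with values are Lck, the genes past the threshold in each comparison (up to 12 in each direction), the 4 of smallest p where none passed, the 6 highest and 6 lowest WT ratios, every gene of a role group with 4 or fewer measured, and up to 6 called genes of each added list. The Nup43, Nup107, Nup133, Nup85, Sec13 and other carrier values given beside them, and the probe sequences and promoters shown, were chosen after the values were seen. Alternatives changed the background correction, normalization, filter, probe per gene, dye orientation, slide, replicate block, extracts and dye-swap pairing, or used the authors' ratios.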

Additional observations from a re-analysis of the deposited data

Results flagged for a closer look

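In 2 of 76 groups of 4 extracts checked, 1 extract stood apart by Dixon's criterion (gap over range above 0.829). Chance marks about 1 in 20 groups. The mean level of Nupl2 in WT replicate 1 was 9.84, against 9.75 to 9.76 in the other WT extracts. The ratio of Nup54 in Lck-/- replicate 2 was -0.91, against -0.71 to -0.67 in the other Lck-/- extracts.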

How the results depend on the processing

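The main counts of genes called were 0 for the ratio, 8 for the mean of both fractions, 5 for polysomal and 9 for sub-polysomal RNA, and 30 in WT and 29 in Lck-/- for the ratio against 0. Other scalings of the ratio moved several counts: median centring, after which the median difference of all tested genes was still -0.78, gave 33 for the ratio, 11 polysomal and 27 sub-polysomal, no normalization 40, 14 and 28, and the authors' deposited ratios 44 (2 after centring). For the ratio, 1 gene was called with the filter on all 16 arrays, with the mean of all probes, and with slide and dye terms, which also gave 13 for the mean and 8 polysomal. With the polysomal fraction in Cy5 alone the counts were 2 for the mean, 0 polysomal, 2 sub-polysomal and 16 in Lck-/-, and in Cy3 alone 2, 0 and 2. Slide 1 alone gave 2 for the mean and 0 polysomal, and slide 2 alone 4 for the mean, 0 sub-polysomal and 17 in WT. Exchanging the WT 1 and WT 2 dye swaps gave 1 polysomal and 3 sub-polysomal, and leaving out both extracts 3 for the mean and 0 polysomal. Single dyes, slides and smaller groups use fewer arrays, and for the other settings the cause was not tested. Shares of all genes are given for the main fit and for some scalings of the ratio only. The other counts describe the settings and not the group.

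Replicate numbers did not pair the samples: deviations of same-numbered extracts correlated between -0.24 and 0.26 for the ratio and between -0.21 and 0.44 for the mean. With the replicate block 0 genes were called for the ratio, 2 for the mean, 2 polysomal and 3 sub-polysomal.

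Leaving out 1 extract at a time gave 0 to 1 for the ratio, 2 to 12 for the mean, 1 to 11 polysomal, 2 to 10 sub-polysomal, 27 to 31 in WT and 27 to 34 in Lck-/-. The polysomal count was 1 without any single WT extract or without Lck-/- 3 or Lck-/- 4, and 11 without Lck-/- 1. The sub-polysomal count was 4 without WT 2, 3 without WT 3 and 2 without Lck-/- 3 or Lck-/- 4.

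Signs turned for single genes. Nup62's ratio difference was -0.58 with median centring, -0.58 with no normalization and -0.98 in the authors' deposited ratios, and Tnpo3's polysomal difference -0.014 and -0.017 in the first 2 of these. The median ratio difference of all tested genes in the 3 settings was -0.78, -0.78 and -1.15, so their 0 is not the typical mRNA. In the same 3 settings the WT ratio was 0.56, 0.84 and 1.27 for Xpo7, 0.83, 1.11 and 1.57 for Ranbp10, 0.92, 1.21 and 1.60 for Nup88, 0.77, 1.06 and 1.51 for Nup160, 0.79, 1.08 and 1.48 for Nup35, and 0.48, 0.76 and 0.98 for Nup54. With no normalization the medians of all tested genes were 1.04 to 1.73 in the WT extracts. Xpo7 was also at 0.021 with the mean of all probes, and between -0.34 and 0.00115 (without WT replicate 3) when 1 extract was left out. Nup160's mean kept its call in 23 of 23 settings and Nupl2's in 21 of 23, the exceptions being the mean of all probes and leaving out WT 1 and WT 2. Median centring and no normalization are among the 23 and cannot change the mean of both fractions. The other 5 genes higher in the mean lost the call in 10 to 14 of 23. The number of extracts limits the precision, and dim probes such as Xpo6 lie near background.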
